A study of Mus musculus with 2 samples.

Results

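Pericytes and vascular smooth muscle cells were picked out of cells recovered from scaffolds in healing skull defects, by 5 genes that mark the mural cells of small vessels. A cell was chosen when it held at least 500 unique molecular identifiers (UMIs), under 20% of them mitochondrial, and at least 5 UMIs in the sum of Rgs5, Kcnj8, Abcc9, Higd1b and Notch3. It also had to hold no Cdh5 (endothelium), at most 1 Csf1r (macrophages), no Cd3e (T cells), and under 0.5% of its UMIs from S100a8 and S100a9 (neutrophils). The rule found 138 of the 15184 cells that passed the limits on UMIs and mitochondrial reads: 99 of 7402 in the Gel50_CS50 library and 39 of 7782 in the Gel100 library.

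Female Balb/c mice aged 6 weeks had a round hole of 3.5 mm drilled in the skull, and it was filled with a scaffold that carried no cells, of the Gel50_CS50 or the Gel100 kind. The labels do not spell these names out. Scaffolds of 5 mice per kind were taken out at week 1 and pooled, digested with Liberase, chondroitinase and hyaluronidase, freed of red cells and sorted for viable cells, so each group is 1 library and its mice were not told apart. There are no replicates, no test between the groups is possible, and every interval below is a 95% interval for counting error only. The libraries held 150311308 UMIs (Gel50_CS50) and 108847835 UMIs (Gel100), with a median of 16763 UMIs per kept cell in Gel50_CS50 and 12741.5 in Gel100. They shared 24 cell barcodes, of which 1 belonged to a chosen cell.

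Mural cells wrap the endothelial tube. Pericytes sit in the basement membrane of capillaries and are held there by PDGF-B from endothelium acting on their receptor Pdgfrb, while smooth muscle cells ring arterioles and venules and contract through smooth muscle actin and myosin. Notch3 is the Notch receptor of mural cells, Rgs5 shortens signalling by G proteins, and Kcnj8 and Abcc9 form the pore and the regulatory subunit of a potassium channel that opens when ATP falls. In injured tissue these cells lie next to fibroblasts, which share several of their genes.

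Kcnj8 and Abcc9 are neighbours on mouse chromosome 6. On mm10, Kcnj8 lies at chr6:142564837-142571614 and Abcc9 at chr6:142587862-142702315, both on the minus strand, with 16247 bases between them. Their promoters, from 250 bases before to 50 bases after the start site, are shown because these 2 genes chose most of the cells with fewer than 3 Rgs5 UMIs. With them stand the promoters of Acta2 (smooth muscle actin) and Myl9 (a regulatory light chain of myosin), of the contractile genes described below. The sequences are those of RefSeq on GRCm38.p6, 5′ to 3′ on the gene's strand, at chr6:142571565-142571864 (Kcnj8, minus strand), chr6:142702225-142702524 (Abcc9, minus strand), chr19:34255324-34255623 (Acta2, minus strand) and chr2:156775214-156775513 (Myl9, plus strand). Capitals mark a match to CATTCC on either strand in Abcc9 and Acta2, and to the CArG box of serum response factor in Myl9.
Kcnj8: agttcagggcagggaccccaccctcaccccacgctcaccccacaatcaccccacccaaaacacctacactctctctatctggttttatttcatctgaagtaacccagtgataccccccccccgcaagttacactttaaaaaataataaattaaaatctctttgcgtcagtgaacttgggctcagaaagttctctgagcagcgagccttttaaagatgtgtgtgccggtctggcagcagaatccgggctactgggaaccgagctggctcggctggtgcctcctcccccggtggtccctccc
Abcc9: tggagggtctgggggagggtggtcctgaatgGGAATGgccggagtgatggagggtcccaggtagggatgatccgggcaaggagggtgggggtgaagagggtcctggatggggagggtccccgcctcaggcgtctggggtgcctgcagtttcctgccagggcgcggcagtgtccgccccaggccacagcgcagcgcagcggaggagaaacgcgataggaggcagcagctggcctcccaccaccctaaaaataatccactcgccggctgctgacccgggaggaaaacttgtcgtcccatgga
Acta2: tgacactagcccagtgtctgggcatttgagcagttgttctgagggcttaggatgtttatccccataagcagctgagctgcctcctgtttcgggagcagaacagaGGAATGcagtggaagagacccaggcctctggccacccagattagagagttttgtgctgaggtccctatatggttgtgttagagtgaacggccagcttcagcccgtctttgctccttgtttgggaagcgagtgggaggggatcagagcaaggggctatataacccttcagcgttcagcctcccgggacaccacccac
Myl9: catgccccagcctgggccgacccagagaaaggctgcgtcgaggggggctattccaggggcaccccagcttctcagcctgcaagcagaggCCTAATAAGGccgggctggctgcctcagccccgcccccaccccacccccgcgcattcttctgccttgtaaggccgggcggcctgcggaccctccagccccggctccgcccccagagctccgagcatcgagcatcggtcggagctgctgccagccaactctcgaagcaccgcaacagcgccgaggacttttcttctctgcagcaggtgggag
Both strands were searched for 4 motifs over 32851 promoters of this length. CATTCC, the core of TEAD sites, stood in 14.7% of them, TATAAA in 13.6%, GTGGGAA, a form of the RBPJ site of Notch signalling, in 6.38% and the CArG box in 1.63%. Of the 5 rule genes, 4 had a promoter in the table, and the only match among them was CATTCC in Abcc9. Of 35 contractile genes, 27 had one: CATTCC stood in 10, TATAAA in 4, the CArG box in 3 (Acta1, Myl6 and Myl9) and GTGGGAA in 1 (Csrp1). The motifs can overlap each other, and a match is a run of letters, not a bound site. The CArG box was searched only in its strict form, CC and GG around a run of A or T. Forms a base away from it, such as ccctatatgg in the Acta2 promoter, were not counted.

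The chosen cells did not form a uniform population, and for a large share of them the data went against the label. Of the 99 Gel50_CS50 cells and the 39 Gel100 cells, 55 and 13 held no Rgs5 UMI, and 2 and 1 held 1 or 2. The cells were therefore described in 3 sets, split after their values were seen. The Rgs5 set (at least 3 Rgs5 UMIs) had 42 cells in Gel50_CS50 and 25 in Gel100. The Abcc9 set (under 3 Rgs5 UMIs, more Abcc9 plus Kcnj8 than Notch3) had 33 cells in Gel50_CS50 and 10 in Gel100. The Notch3 set, the remainder, had 24 cells in Gel50_CS50 and 4 in Gel100. Since the sets were cut from the rule's own genes, those genes describe the sets and support nothing.

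Genes outside the rule set the Rgs5 set apart. Pdgfra, the PDGF receptor of fibroblasts, was present in 3 of 42 Rgs5-set cells in Gel50_CS50 and in 0 of 25 in Gel100 (which allows up to 12% of cells with a UMI), against 33 of 33 and 10 of 10 cells of the Abcc9 set and 21 of 24 and 4 of 4 cells of the Notch3 set. Dcn (decorin, a collagen-binding proteoglycan of fibroblasts) reached 10 UMIs in 3 of 42 and 0 of 25 cells of the Rgs5 set, in 33 of 33 and 10 of 10 of the Abcc9 set, and in 20 of 24 and 3 of 4 of the Notch3 set. Myh11, the smooth muscle myosin heavy chain, ran the other way: it was detected in 29 of 42 and 16 of 25 cells of the Rgs5 set, in 2 of 33 and 1 of 10 of the Abcc9 set, and in 0 of 24 and 0 of 4 of the Notch3 set, which allows up to 12.5% and 75%. Among endothelial cells without Ptprc, which should lack it, Myh11 was detected in 0 of 38 Gel50_CS50 cells (up to 7.89%, median 19376.5 UMIs) and 0 of 15 Gel100 cells (up to 20%, median 22531 UMIs), against medians of 24251 and 6272 UMIs in the Rgs5 set. In Gel50_CS50 the Abcc9 and Notch3 sets were deeper, with medians of 47821 and 47783 UMIs. The limits for Pdgfra and Dcn are raw UMIs, and 12 Gel100 cells of the Rgs5 set held under 5000 UMIs. Their lack of Pdgfra and Dcn says less, and the limit of 12% covers the number of cells, not their depth. Cells of the Abcc9 and Notch3 sets thus fit the rule, but most carry the fibroblast genes Pdgfra and Dcn, and the sets hold little or no Myh11. Exceptions in the Gel50_CS50 Notch3 set were the cells with 33 and 29 UMIs of the mural gene Mcam. They held 0 Pdgfra and 2 Dcn UMIs each, with 15 and 20 UMIs of the pericyte gene Cspg4. Myh11 is a smooth muscle gene, so its lack does not separate the sets from pericytes. The sets are called by their leading gene here, not pericytes.

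**Figure D1:**
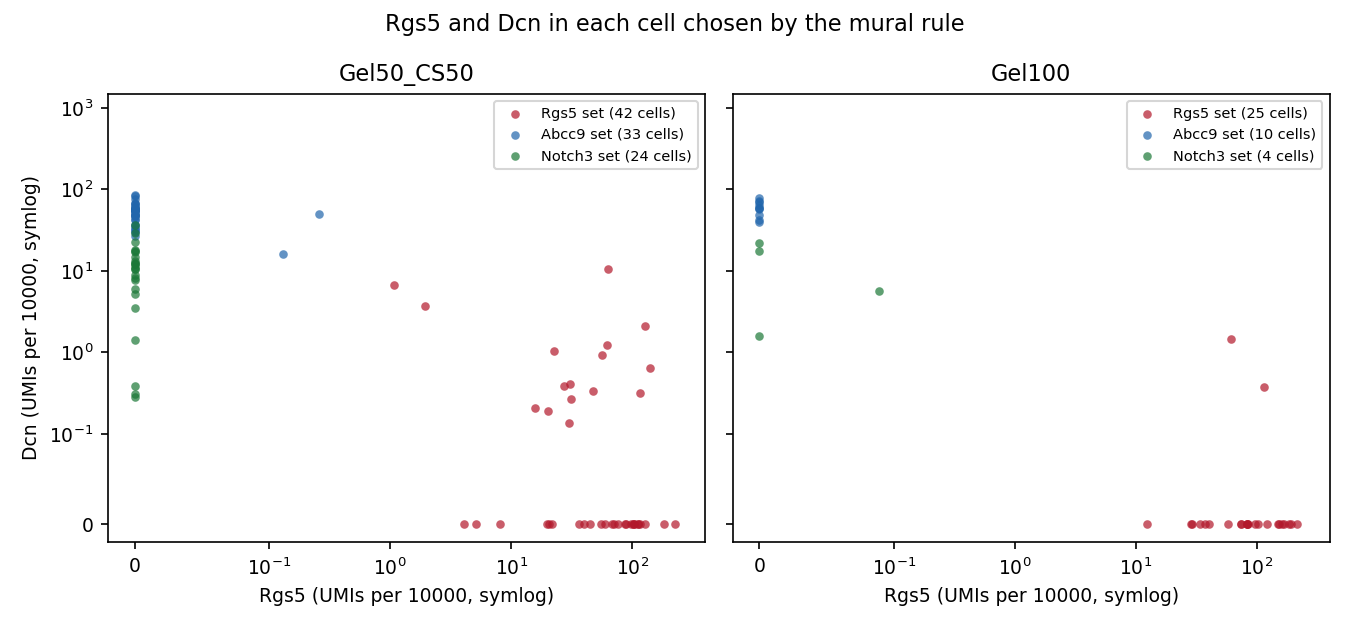
Rgs5 (x axis) and Dcn (y axis) in UMIs per 10000 of the cell, both on symlog axes that are linear near 0, for each chosen cell of the Gel50_CS50 library (left) and the Gel100 library (right), coloured by set. Cells of the Abcc9 and Notch3 sets stack at or near 0 Rgs5 with Dcn up to near 100, while most Rgs5-set cells lie at 0 Dcn.

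Values at the rule's limit were sparse. With the exclusions applied, 15 Gel50_CS50 cells and 4 Gel100 cells stood just outside at a marker sum of 4, and 11 and 3 just inside at a sum of 5, while 37 and 13 reached 40 or more. Of the members, 33 in Gel50_CS50 and 6 in Gel100 passed on 1 of the 5 genes alone. All 5 were present in 15 and 8 cells, every one of them in the Rgs5 set. Before the exclusions 163 and 61 cells had the marker sum. In Gel50_CS50 the limits on Cdh5, Csf1r and Cd3e met 16, 27 and 29 of them and the neutrophil limit 2, and in Gel100 these limits met 7, 4, 12 and 0, with a cell counted under each limit it failed. Scrublet called 3 Gel50_CS50 members and 0 Gel100 members doublets, the 3 all in the Notch3 set.

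Members made up 1.34% of kept cells in Gel50_CS50 (1.09 to 1.63) and 0.501% in Gel100 (0.357 to 0.684). The difference was 0.836 percentage points (0.536 to 1.15). It was spread over the sets. The Rgs5 set took 0.567% of kept cells in Gel50_CS50 (0.409 to 0.766) and 0.321% in Gel100 (0.208 to 0.474), a difference of 0.246 points (0.0341 to 0.470). The Abcc9 set took 0.446% in Gel50_CS50 and 0.128% in Gel100, a difference of 0.317 points (0.150 to 0.506). The Notch3 set took 0.324% in Gel50_CS50 and 0.0514% in Gel100, a difference of 0.273 points (0.139 to 0.434). The Rgs5 set was thus 42.4% of the Gel50_CS50 members (32.5 to 52.8) and 64.1% of the Gel100 members (47.2 to 78.8). All 3 shares were higher in Gel50_CS50 beyond counting error, but a pool of 5 mice gives no measure of the spread between mice.

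**Figure D2:**
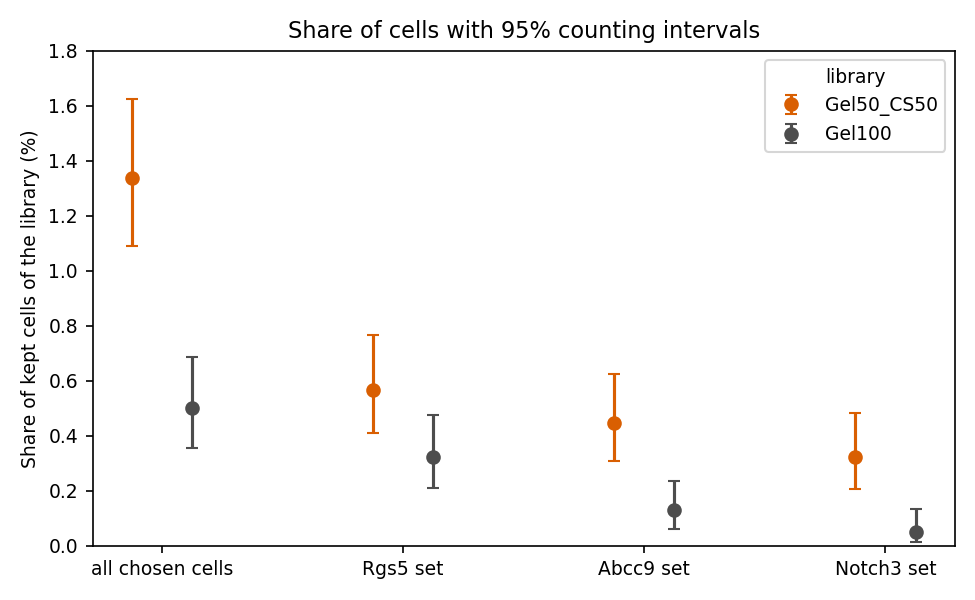
Share of kept cells (y axis, percent) taken by all chosen cells and by each set, Gel50_CS50 left of Gel100 within each pair, with bars for the 95% Clopper-Pearson intervals. All chosen cells take 1.34% of Gel50_CS50 and 0.501% of Gel100, and the Rgs5 set shows the closest pair of intervals.

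Depth moved with these shares. Under 5000 UMIs there were 3 Rgs5-set cells in Gel50_CS50 and 12 in Gel100. The 12 Gel100 cells had a median of 1859.5 UMIs and 9 of them held a UMI of Ptprc, the pan-leukocyte gene. Among cells with 5000 UMIs or more the Rgs5 set was 39 of 6076 cells in Gel50_CS50 (0.642%) and 13 of 5472 in Gel100 (0.238%), a difference of 0.404 points (0.164 to 0.659). Other stromal cells, those with collagen, Dcn or Pdgfra but without the marker sum, numbered 233 in Gel50_CS50 and 88 in Gel100. They had to hold at least 20 UMIs in the sum of Col1a1, Col1a2, Dcn and Pdgfra, and to pass the rule's exclusions. They also held no Ptprc, a limit not set for members. Their median depth was 46852 UMIs in Gel50_CS50 and 45724 in Gel100.

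Set against endothelium, the picture depended on how endothelial cells were counted. With Cdh5 and Pecam1 at 2 UMIs or more, there were 0.6 members per endothelial cell in Gel50_CS50 (0.463 to 0.774) and 0.238 in Gel100 (0.163 to 0.339). Of these endothelial cells, 127 of 165 in Gel50_CS50 and 149 of 164 in Gel100 held Ptprc. With those left out, 38 endothelial cells remained in Gel50_CS50 and 15 in Gel100, and the ratio was 2.61 (1.78 to 3.89) in Gel50_CS50 and 2.6 (1.40 to 5.08) in Gel100. Rgs5-set cells alone gave 1.11 per endothelial cell (0.696 to 1.76) in Gel50_CS50 and 1.67 (0.845 to 3.40) in Gel100, intervals that overlap widely.

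The Rgs5 set carried the other known pericyte genes at like levels in both libraries. Levels are given as CPM, the UMIs of a gene summed over the set's cells and scaled to all their UMIs, and ratios as log2 of Gel50_CS50 over Gel100. Pdgfrb had 584 CPM in Gel50_CS50 and 493 CPM in Gel100, against 111 and 65.0 CPM in other stromal cells. Cspg4 (NG2, a surface proteoglycan of pericytes) had 221 and 191 CPM, against 19.2 and 23.8 CPM in other stromal cells. Mcam (an adhesion molecule of mural cells) had 292 and 259 CPM, Cox4i2 (a cytochrome oxidase subunit) 134 and 133 CPM, and Vtn (vitronectin) 137 and 123 CPM, and each of these 3 was under 2 CPM in other stromal cells. A gene was counted as measured at a mean of 20 CPM over the libraries, and as higher or lower when its interval lay wholly beyond 1.5-fold. Over all 6905 measured genes, 77 were higher (1.12%) and 233 lower (3.37%) in Gel50_CS50, with a median ratio of -0.03. Of 25 measured pericyte genes outside the rule, 1 was higher, Aspn (a small leucine-rich matrix protein), and 1 lower, Anpep (aminopeptidase N). The 5 rule genes had 0 beyond 1.5-fold, with Rgs5 at 5637 and 8213 CPM (log2 ratio -0.54, interval -0.60 to -0.48) and Notch3 at 875 and 777 CPM. Without the Gel100 cell richest in Acta2, 1 of the 5 was lower in Gel50_CS50 beyond 1.5-fold, Rgs5. The same held without the richest cell of each library.

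Rgs5 varied widely between cells of the Rgs5 set. It held 3 to 484 UMIs per Rgs5-set cell in Gel50_CS50, with a median of 128.5, and 6 to 549 in Gel100, with a median of 44. Per 10000 UMIs of the cell, which takes out depth, the median was 58.4 in Gel50_CS50 (1.08 to 224) and 83.1 in Gel100 (12.4 to 215). The ranges overlap over nearly their whole length, and the cells under 12.4 were all from Gel50_CS50.

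Regulators tied to mural identity had like levels in both libraries. Myocd, the coactivator of smooth muscle genes, had 62.7 and 65.4 CPM, Tbx18 had 66.3 and 75.4 CPM, and Foxs1 had 61.0 and 52.8 CPM. Foxf2, a brain pericyte factor, was low at 1.79 and 5.03 CPM. Of 24 measured regulators, 2 were higher in Gel50_CS50 and 0 lower, where 1.12% of all genes were higher and 3.37% lower. Ebf1 had 5072 CPM in Gel50_CS50 and 3070 CPM in Gel100 (0.72, 0.63 to 0.81), and Meis2 had 86.9 and 15.1 CPM (2.53, 1.35 to 4.01). Without the Gel100 cell richest in Acta2, or without the Gel100 cell with 28 Ptprc UMIs, only Meis2 stayed higher. Per 10000 UMIs, the Ebf1 medians in cells of 5000 UMIs or more were 44.5 in Gel50_CS50 and 36.1 in Gel100. Meis2 was detected in 16 of 42 cells in Gel50_CS50 and 3 of 25 in Gel100.

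Of 13 measured genes of the Notch pathway, 0 were beyond 1.5-fold, with a median ratio of -0.04. With 1.12% of all measured genes higher and 3.37% lower, a list this short says little by its count. The Notch target Heyl had 138 and 126 CPM in the Rgs5 set, 66.1 and 22.3 CPM in the Notch3 set and 0 UMIs in the Abcc9 set, against 4.13 and 4.19 CPM in other stromal cells. Hes1, another target, had 149 and 118 CPM in the Rgs5 set, and the ligand gene Jag1 had 134 and 138 CPM. Jag2 and Dll1 were at 0 UMIs in the Rgs5 set of both libraries.

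Of 29 measured genes that set vessel tone, 0 were higher and 2 lower in Gel50_CS50, with a median of -0.04, which is near the shares of 1.12% higher and 3.37% lower over all genes. Cacna1c, the pore of the L-type calcium channel, had 1000 and 1016 CPM. Prkg1, the kinase activated by cyclic GMP, had 2902 and 2977 CPM, and Gucy1a1, a subunit of the nitric oxide receptor, had 437 and 372 CPM. Trpc6, a cation channel, had 256 and 249 CPM against 0.527 and 0 CPM in other stromal cells, and the chloride channel Ano1 had 295 and 219 CPM against 0.703 and 1.05 CPM. The endothelin receptor Ednra had 544 and 428 CPM. Both lower genes encode enzymes that break down cyclic nucleotides: Pde5a had 231 CPM in Gel50_CS50 and 465 CPM in Gel100 (-1.01, -1.29 to -0.73), and Pde4d had 217 and 553 CPM (-1.35, -1.62 to -1.08). With each cell weighted equally the ratios were -0.86 for Pde5a and -1.88 for Pde4d.

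**Figure D3:**
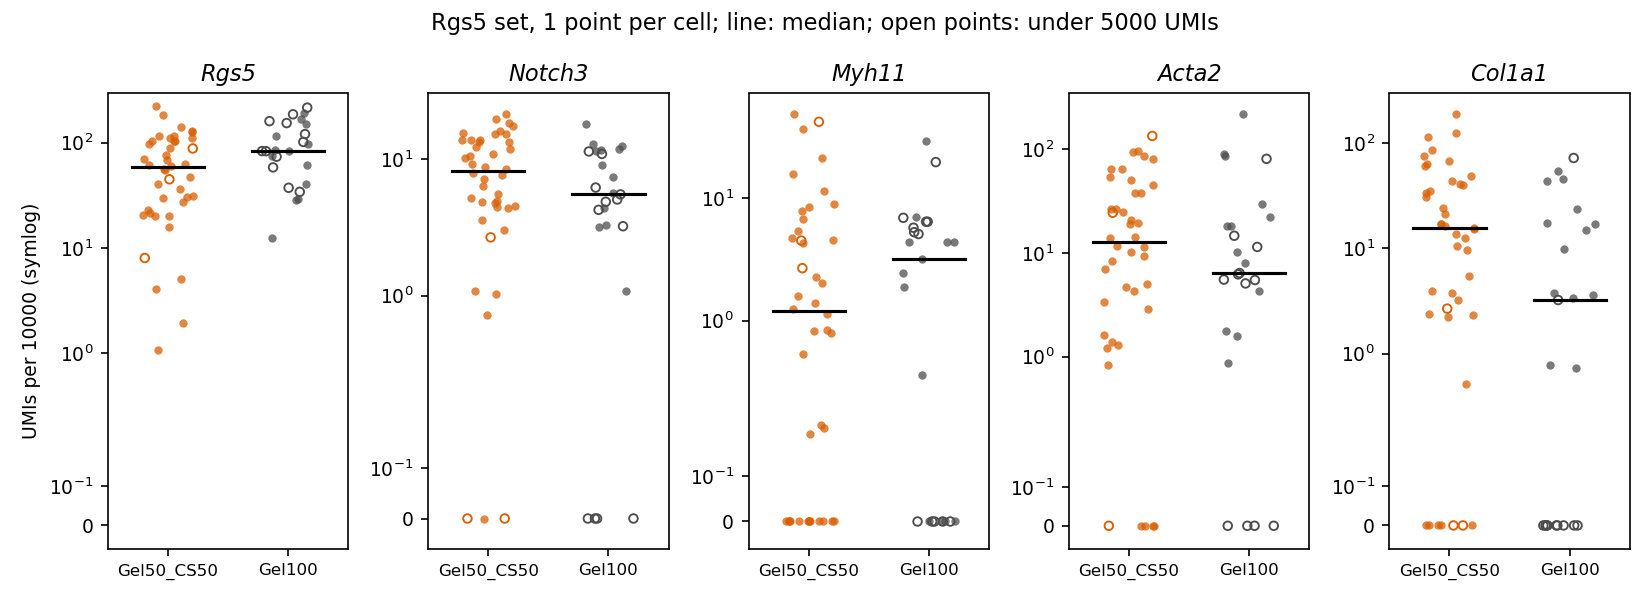
Rgs5, Notch3, Myh11, Acta2 and Col1a1 in UMIs per 10000 (y axis, symlog) for each Rgs5-set cell, Gel50_CS50 left of Gel100, with the median as a line and cells under 5000 UMIs as open points. The 25 Gel100 cells include 12 open points, and the highest Acta2 point is 1 Gel100 cell.

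Several contractile genes were lower in Gel50_CS50 when UMIs were summed, and 1 Gel100 cell held much of the difference. Of 31 measured contractile genes, 0 were higher and 8 lower (Acta2, Actg2, Cnn1, Csrp1, Sorbs2, Synpo2, Tagln and Tpm1), with a median of -0.63. The shares over all genes were 1.12% higher and 3.37% lower. Acta2 held 0 to 303 UMIs per cell in Gel50_CS50, with a median of 35.5, and 0 to 1412 in Gel100, with a median of 4. The Gel100 cell with 1412 Acta2 UMIs, 64543 UMIs deep, held 66.2% of the set's Acta2, with 422 Tagln, 138 Actg2 (gamma smooth muscle actin) and 79 Cnn1 (calponin) UMIs. The summed levels were 2392 CPM for Acta2 in Gel50_CS50 and 5364 CPM in Gel100 (-1.16, -1.25 to -1.08). Without that 1 Gel100 cell, Acta2 stood at 0.14, Actg2 at 0.34 and Tagln (transgelin) at -0.33. Of 30 contractile genes then measured, 1 was lower, Synpo2 (synaptopodin 2, an actin-binding protein), and the list median was -0.31, against -0.04 over all genes. Cnn1, at 6.27 and 224 CPM with that cell, had a ratio of -2.26 without it.

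Myh11 itself had 300 CPM in Gel50_CS50 and 470 CPM in Gel100 (-0.65, -0.91 to -0.38), and with cells weighted equally the sign turned, to 0.38. It reached 3 UMIs in 20 of 42 Rgs5-set cells in Gel50_CS50 (47.6%, 32.0 to 63.6) and in 9 of 25 in Gel100 (36%, 18.0 to 57.5), a difference of 11.6 points (-12.5 to 33.1). With cells thinned to 5000 UMIs it was detected in 17 of 39 cells in Gel50_CS50 and 7 of 13 in Gel100. Over all members the shares at 3 UMIs were 20.2% (12.8 to 29.5) in Gel50_CS50 and 23.1% (11.1 to 39.3) in Gel100. None of these intervals of shares separates the libraries, while the interval of the summed ratio lies below 0. That sum leans on few cells, since 1 Gel100 cell of the Rgs5 set held 96 Myh11 UMIs. These were 51.1% of the 188 over all Gel100 members, and the ratio without that cell was not computed. Des (desmin) had 254 and 438 CPM, Mylk (myosin light chain kinase) 877 and 1112 CPM and Myl9 607 and 961 CPM, with intervals that reach within 1.5-fold.

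Levels of channel, contractile and collagen genes were also set against each other across cells. Over the 39 Gel50_CS50 cells and the 13 Gel100 cells with 5000 UMIs or more, Spearman's rank correlation between fractions of UMIs was 0.79 and 0.64 for Kcnj8 with Abcc9, 0.86 and 0.81 for Acta2 with Tagln, and -0.64 and -0.85 for Abcc9 with Acta2. Rgs5 and Notch3 gave 0.52 and 0.70. Rgs5 and Col1a1, the type I collagen chain, gave -0.68 and -0.66, and Col1a1 and Col1a2 gave 0.90 and 0.95. Other pairs stood further apart in the libraries. Myh11 with Col1a1 gave -0.73 and -0.29, Acta2 with Col1a1 -0.05 and 0.41, and Abcc9 with Col1a1 -0.19 and -0.52. Myh11 with Rgs5 gave 0.56 and 0.25, and Notch3 with its target Heyl gave 0.51 and 0.03. Cells of a library share their pool and depth range, so these are descriptions, and no difference between the libraries was tested. The rank correlation between Col1a1 and the cell's total UMIs was 0.60 in Gel50_CS50 and -0.10 in Gel100.

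Fibrillar matrix genes were higher in the Gel50_CS50 Rgs5 set. Of 34 measured, 13 were higher and 2 lower, with a median of 0.73 against -0.03 over all genes. Of all genes, 1.12% were higher and 3.37% lower. Col1a1 had 4225 CPM in Gel50_CS50 and 1617 CPM in Gel100 (1.39, 1.27 to 1.51), Col1a2 had 4951 and 1509 CPM (1.71, 1.59 to 1.84), and Col6a1, a chain of the beaded-filament collagen VI, had 1221 and 417 CPM (1.55, 1.31 to 1.79). The other higher genes were Col3a1, Col5a1, Col6a2, Col6a3, Col11a1, Col12a1, Cthrc1, Dcn, Fmod and Timp1. Dcn was low in absolute terms, with 86.9 and 10.1 CPM, against 2394 and 2191 CPM in other stromal cells. The 2 lower genes were Tnc (tenascin C) and Adamts4 (an aggrecanase), at 151 and 443 CPM for Tnc. In Gel100, 73.2% of the Tnc UMIs came from 1 cell. Without the cell richest in Acta2 in each library, 15 of 34 fibrillar genes were higher and 0 lower, and among cells of 5000 UMIs or more 13 were higher and 2 lower. The 3 Gel50_CS50 cells of the set with a Pdgfra UMI held 38.4% of its Col1a1, 35.8% of its Col1a2 and 59.8% of its Dcn UMIs, and no Gel100 cell of the set held Pdgfra. Without those 3 cells, 8 of 33 fibrillar genes were higher and 1 lower, with a median of 0.46. Col1a1 then stood at 0.87 (0.75 to 1.00) and Col1a2 at 1.26 (1.13 to 1.39), and the interval of Dcn reached within 1.5-fold.

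Among cells of 5000 UMIs or more, Col1a1 differed mainly in its highest cells, while the medians of Col1a2, Col3a1 and Col6a1 differed too. Per 10000 UMIs, Col1a2 ran from 0 to 233 in Gel50_CS50, with a median of 21.2, and from 0 to 53.9 in Gel100, with a median of 6.46. At 5000 UMIs or more the medians were 21.9 in Gel50_CS50 and 11.8 in Gel100, and for Col1a1 they were 16.4 and 14.8. For Col3a1 the medians at this depth were 36.4 and 18.5, and for Col6a1 8.67 and 4.75. The highest cells held 189 Col1a1 per 10000 in Gel50_CS50 and 54.2 in Gel100. All Gel100 cells of that depth held Col1a1, and 34 of 39 Gel50_CS50 cells did. In cells with at least 3 Myh11 UMIs, Col1a2 had 2080 CPM in Gel50_CS50 and 1467 CPM in Gel100. In cells with fewer, it had 6873 CPM in Gel50_CS50 and 1566 CPM in Gel100, and Rgs5 had 3002 and 8198 CPM. The Gel100 cells with fewer than 3 Myh11 UMIs were 16 with a median of 1938 UMIs, the Gel50_CS50 cells 22 with a median of 24763 UMIs, and the part of this depth gap in the difference was not tested. In other stromal cells Col1a2 had 14513 and 13152 CPM and Col1a1 had 11424 and 11489 CPM, and of 44 measured fibrillar genes there 4 were higher (Col11a1, Col12a1, Mmp13 and Mmp3) and 4 lower (Eln, Ly6a, Thy1 and Timp3), where 1.23% of all measured genes were higher and 1.84% lower.

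**Figure D4:**
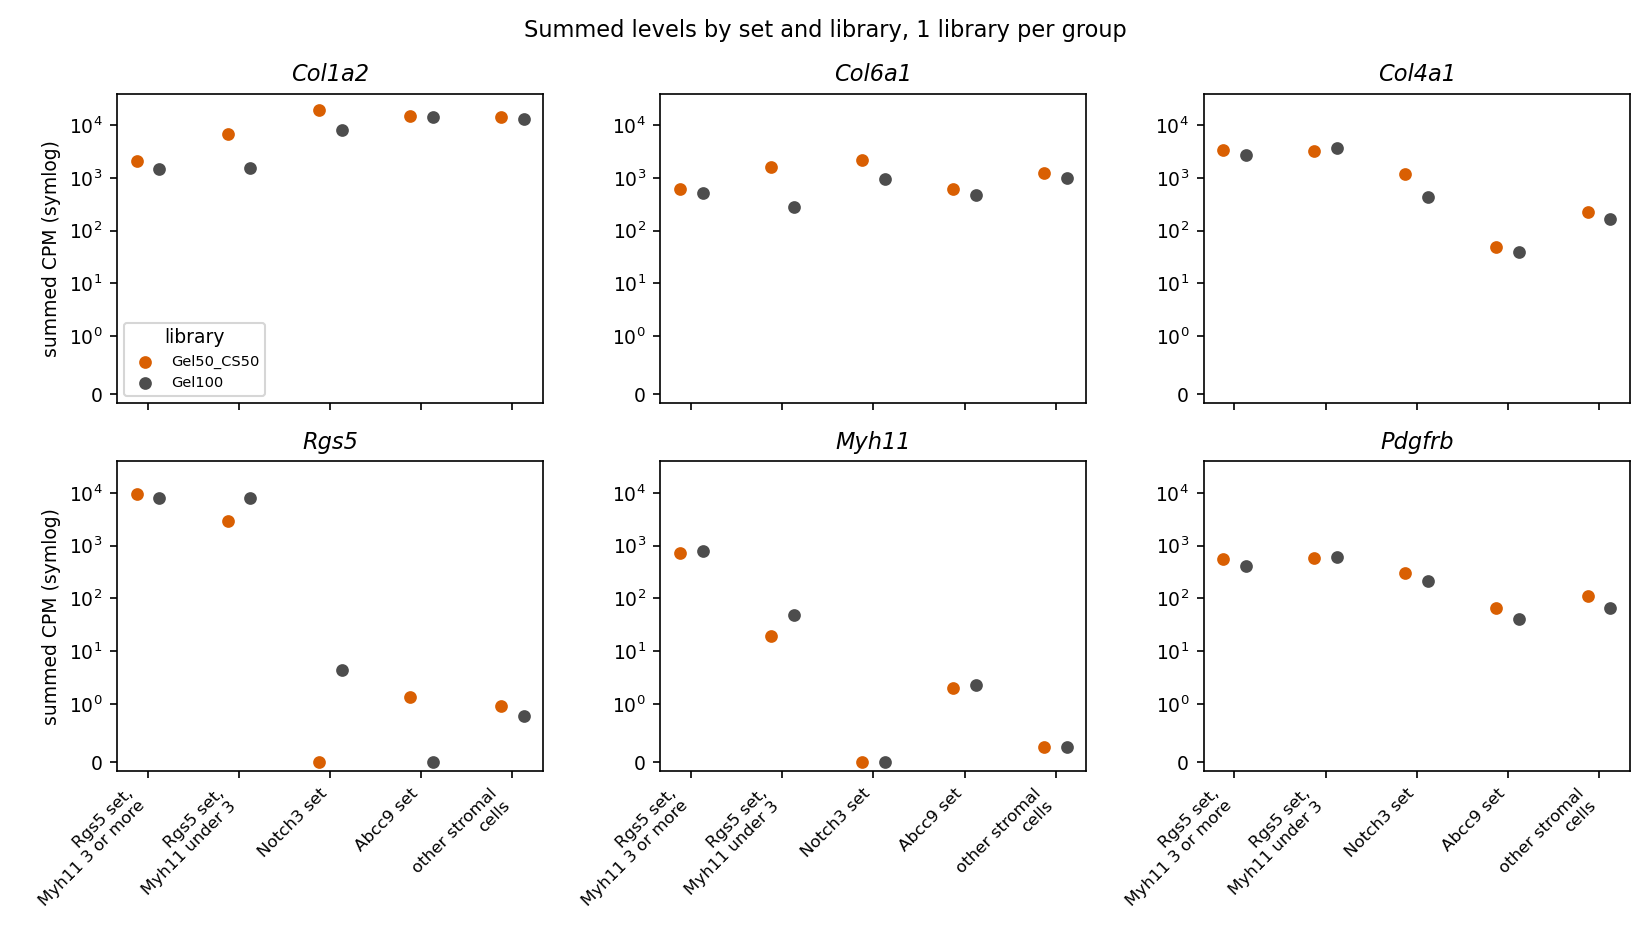
Summed CPM (y axis, symlog) of Col1a2, Col6a1, Col4a1, Rgs5, Myh11 and Pdgfrb in the Rgs5 set split at 3 Myh11 UMIs, the Notch3 set, the Abcc9 set and other stromal cells, 1 point per library with Gel50_CS50 left of Gel100. Col1a2 reaches 6873 CPM in Gel50_CS50 cells with under 3 Myh11 UMIs and 1566 CPM in the Gel100 ones, while Col4a1 over the whole Rgs5 set is 3306 CPM in Gel50_CS50 and 3136 CPM in Gel100.

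The basement membrane collagen genes Col4a1 and Col4a2 did not follow the fibrillar collagens, while their list leaned the same way by less. Of 29 measured genes of basement membrane and adhesion, 2 were higher, the cadherin genes Cdh11 and Cdh13, and 0 lower, with a median of 0.18. Ratios were above 0 for 22 of the 29, against 3296 of all 6905 measured genes. Among all measured genes of the set, 1.12% were higher and 3.37% lower. Col4a1, the main chain of basement membrane collagen, had 3306 CPM in Gel50_CS50 and 3136 CPM in Gel100 (0.08), and Col4a2 had 1778 and 1768 CPM. Per 10000 UMIs the Col4a1 medians were 29.0 in Gel50_CS50 and 29.1 in Gel100. In other stromal cells Col4a1 had 229 and 163 CPM and in the Abcc9 set 49.1 and 38.5 CPM. Sparcl1 had 1409 and 1393 CPM, and the integrin gene Itga7 had 93.2 and 85.5 CPM against 0.351 and 0 CPM in other stromal cells.

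Guidance and growth factor genes held several of the larger ratios, on few UMIs. Among all measured genes of the Rgs5 set, 1.12% were higher and 3.37% lower. Of 20 measured genes for vessel guidance and angiogenic factors, 4 were higher (Slit2, Epha3, Ptn and Mdk) and 2 lower (Slit3 and Thbs1). Slit2, a secreted ligand of Robo receptors, had 133 CPM in Gel50_CS50 and 17.6 CPM in Gel100 (2.91, 1.83 to 4.25) and was detected in 17 of 42 and 4 of 25 cells. The ephrin receptor Epha3 had 160 and 32.7 CPM, with 84.6% of its Gel100 UMIs in 1 cell. Slit3 had 27.8 and 106 CPM, with 78.8% of the Gel100 UMIs in 1 cell. Angpt1 and Angpt2, the ligands of the endothelial receptor Tek, had 243 and 267 CPM and 203 and 194 CPM. Among 15 measured genes of PDGF and growth factor signalling, Egfr, the EGF receptor, was higher at 190 and 78.0 CPM, and Ccn2, a matricellular protein, was lower at 66.3 and 583 CPM. Of the Gel100 Ccn2 UMIs, 66.8% came from 1 cell, and its ratio with equal weights was -2.52. Of 25 measured TGF-beta and BMP genes, 0 were higher and 5 lower (Bmp2, Bmp5, Id1, Smad3 and Tgfb3), and Bmp5, a secreted BMP, had 30.5 and 90.5 CPM. Without the Gel100 cell richest in Acta2, 3 of 24 stayed lower, Bmp5, Id1 and Smad3.

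Interferon-stimulated genes were lower in the Gel50_CS50 Rgs5 set. Of 43 measured, 0 were higher and 17 lower, with a median of -0.90, where 1.12% of all genes were higher and 3.37% lower. B2m, the light chain of MHC class I, had 955 CPM in Gel50_CS50 and 1778 CPM in Gel100 (-0.90, -1.04 to -0.76), and the heavy chain H2-K1 had 399 and 971 CPM (-1.28, -1.48 to -1.08). Per 10000 UMIs, B2m had a median of 6.41 in Gel50_CS50 (0 to 35.9) and 13.2 in Gel100 (3.23 to 48.9), with overlapping ranges. Rsad2 (viperin, an antiviral enzyme) was detected in 5 of 42 cells in Gel50_CS50 and 10 of 25 in Gel100, with 6.27 and 196 CPM. The guanylate-binding protein gene Gbp2 had 49.3 and 194 CPM and was detected in 12 of 42 and 11 of 25 cells. Per 10000 UMIs, the medians of Gbp2 and Rsad2 were 0 in both libraries, so their sums rest on a part of the cells. Their highest cells stood at 8.52 in Gel50_CS50 and 18.3 in Gel100 for Gbp2, and at 0.799 and 9.28 for Rsad2. H2-K1 had medians of 2.66 and 7.59, with highest cells at 18.5 and 55.9. Iigp1, an immunity-related GTPase, had 260 and 744 CPM, but 1 Gel100 cell held 91.2% of that library's UMIs. In other stromal cells B2m had 958 and 1701 CPM and H2-K1 490 and 870 CPM, and of 41 measured interferon genes there 1 was higher (Ifi27) and 17 lower, with a median of -0.70. The same direction thus stood in stromal cells without the marker sum.

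Chemokine and cytokine genes moved in the same direction on few cells. Of 28 measured, 2 were higher (Il1r1 and Tnfaip6) and 11 lower, with a median of -0.62. The shares over all genes were 1.12% higher and 3.37% lower. Cxcl9, a chemokine induced by interferon gamma, had 43.0 CPM in Gel50_CS50 and 1018 CPM in Gel100 (-4.57), and 95.1% of the Gel100 UMIs came from 1 cell. It was detected in 8 of 42 cells in Gel50_CS50 and 6 of 25 in Gel100. Nfkbia, the inhibitor and target of NF-kB, had 183 and 423 CPM, with 23.2% of the Gel100 UMIs in 1 cell. Il1r1, the interleukin-1 receptor, had 394 and 189 CPM (1.06, 0.71 to 1.44).

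Leukocyte RNA moved with these immune genes. The 18 genes of the macrophage and monocyte list summed to 390 CPM in the Rgs5 set of Gel50_CS50 and 1443 CPM in that of Gel100, against 21626 and 22497 CPM over all other kept cells, and 9 of its 10 measured genes were lower. The 10 neutrophil genes summed to 92.3 and 317 CPM. The 18 endothelial genes summed to 497 and 664 CPM, with Cdh5 and Cldn5 at 0. Ptprc was detected in 9 of 42 cells in Gel50_CS50 and 16 of 25 in Gel100, and 1 Gel100 cell held 28 Ptprc and 34 Lyz2 UMIs. That cell was the only 1 of the set with 5 or more Ptprc UMIs. Without it, 13 of 42 measured interferon genes were lower with a median of -0.76, and 12 of 27 inflammatory genes were lower with a median of -0.57. Leukocyte genes stayed lower too, 6 of 8 measured macrophage genes with a median of -2.09 and 2 of 3 neutrophil genes. Leaving out this cell thus did not take leukocyte RNA out of the comparison. Among cells of 5000 UMIs or more, 18 of 43 interferon genes were lower. The part of free or leukocyte RNA in the remaining difference was not tested.

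**Figure D5:**
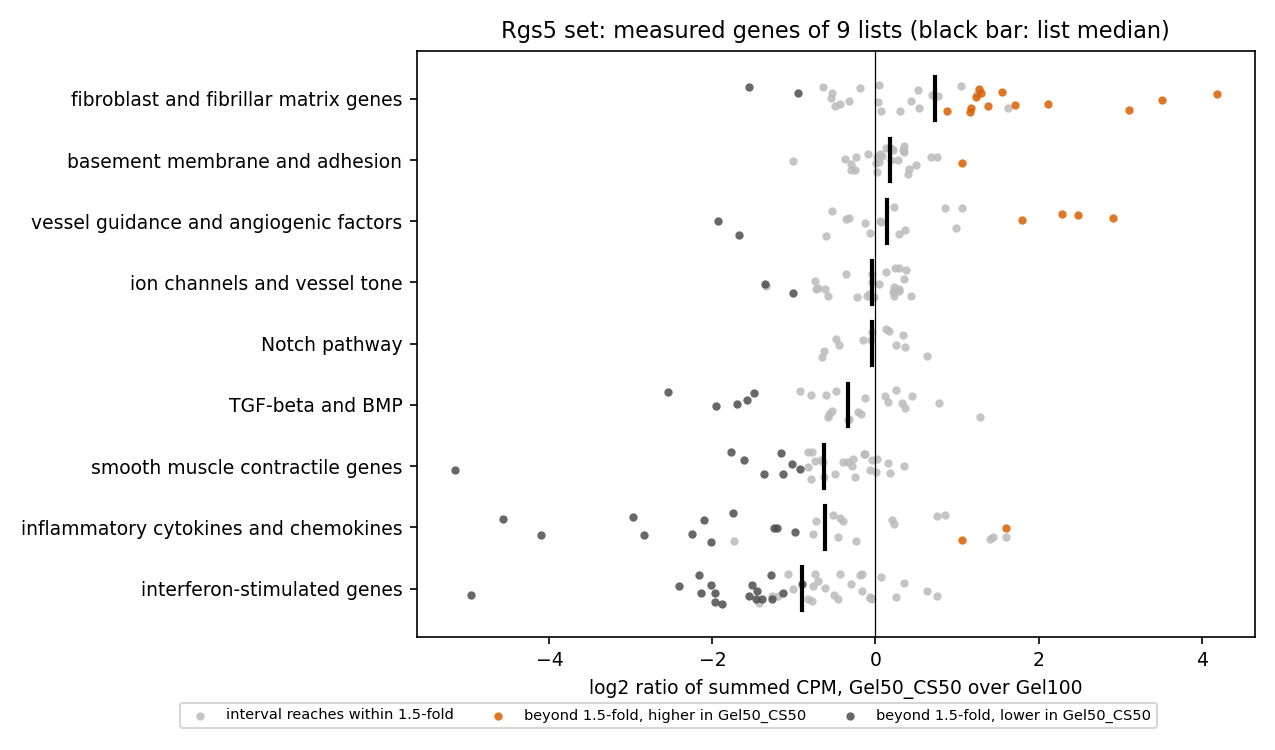
Log2 ratio of summed CPM, Gel50_CS50 over Gel100 (x axis), for each measured gene of 9 lists (y axis) in the Rgs5 set, with list medians as black bars. Fibrillar matrix genes centre on 0.73 and interferon-stimulated genes on -0.90, and Cdh13, with 0 UMIs in Gel100, is not drawn.

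Of the remaining lists in the Rgs5 set, some held 0 genes beyond 1.5-fold and others exceeded the shares over all genes, on few genes each. Those shares were 1.12% higher and 3.37% lower. Glycolysis and hypoxia genes (24 measured) had 0 beyond 1.5-fold. Cell cycle genes (23 measured) also had 0, with a median of -0.07, but 64.8% of their UMIs in Gel100 came from the cell richest in Acta2, and 36.0% of those in Gel50_CS50 from 1 cell. Without that Gel100 cell, 6 of 17 measured cell cycle genes were higher in Gel50_CS50 (Cenpe, Cenpf, Mki67, Prc1, Top2a and Tpx2), with a median of 0.83. Of 27 immediate-early and heat-shock genes, 1 was higher (Nr4a3) and 2 lower (Fosl2 and Zfp36). Of 31 genes of chondroitin sulfate and proteoglycans, 2 were higher, Dcn and Csgalnact1 (which starts chondroitin chains, at 88.7 and 30.2 CPM), and 3 lower, Acan, Cd44 and Sdc3. Cd44, the hyaluronan receptor, had 221 and 541 CPM, and it had 482 and 1852 CPM in other stromal cells. Of 11 measured skeletal genes, 2 were higher (Runx2 and Spp1) and 1 lower (Acan). Runx2, the osteoblast regulator, had 95.9 and 25.2 CPM in the Rgs5 set against 319 and 218 CPM in other stromal cells, while the osteoblast gene Bglap was at 0 UMIs in both.

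Across all genes, 30 were higher in Gel50_CS50 under the stricter rule used for naming genes, which asks for a mean of at least 50 CPM and no cell with over 25% of the UMIs in the higher library, beside limits on detection and level. Among the 12 with the highest ratios, Tenm3, an adhesion protein of the teneurin family, had 229 CPM in Gel50_CS50 and 60.4 CPM in Gel100, Serpinf1 (pigment epithelium-derived factor) had 186 and 57.8 CPM, and Gpr176, an orphan receptor, had 220 and 75.4 CPM. Col5a3 had 775 and 287 CPM. By the same rule, 7 were lower, among them Bmp5, Akap12, Hdac9, Fosl2, Pde5a and Socs3. The limits on single cells, detection and level apply in the higher library only, with 42 cells for higher genes and 25 for lower ones. So the 30 and 7 do not give the balance of directions. Over all 6905 measured genes, 77 were higher (1.12%) and 233 lower (3.37%). Akap12, a scaffold of protein kinase A, had 177 and 493 CPM, and Socs3, the cytokine feedback inhibitor, had 145 and 287 CPM.

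Against other stromal cells, 380 of 3334 genes were over 2-fold higher in the Rgs5 set in both libraries. The 15 genes leading by the smaller of the 2 ratios included Myh11 (0.264 and 0.262 CPM in other stromal cells), Esam (an adhesion molecule of endothelium and mural cells), Gja4 (connexin 37, at 189 and 204 CPM), Myocd, Vtn, Ano1, Trpc6, Rgs6 and Fhl5. The rule chose the cells by expression, so this describes them and is no test. Over all members, mixed as they are, 153 of 3407 genes were over 2-fold higher in both libraries.

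The Abcc9 set led with genes of another kind. Over 2-fold higher than other stromal cells in both libraries were 232 of 3030 genes, with Pi16 (a peptidase inhibitor of adventitial fibroblasts) at 1997 CPM in Gel50_CS50 and 3483 CPM in Gel100, against 200 and 129 CPM in other stromal cells. Tek, the angiopoietin receptor, had 197 and 177 CPM, against 28.2 and 26.7 CPM. Sema3c, a secreted semaphorin, had 1643 and 1913 CPM, against 397 and 470 CPM. Pdgfra held 1 to 63 UMIs per cell in Gel50_CS50, with a median of 17, and 5 to 36 in Gel100, with a median of 14. Abcc9 itself held 3 to 32 UMIs per cell with a median of 7 in Gel50_CS50, and 4 to 27 with a median of 6 in Gel100. Heyl, Des, Cnn1 and Ano1 were at 0 UMIs in the Abcc9 set of both libraries.

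Several secreted immune genes were lower in the Gel50_CS50 Abcc9 set. Of 35 measured genes of inflammatory cytokines and chemokines, 4 were higher (Ccl4, Cxcl2, Il1b and Lcn2) and 10 lower, with a median log2 ratio of -0.36, where 2.05% of all 6490 measured genes were higher and 1.79% lower. C3, the central complement protein, had 1128 CPM in Gel50_CS50 and 2667 CPM in Gel100. Saa3, an acute-phase protein, had 442 and 1246 CPM, and the interleukin gene Il6 had 39.0 and 163 CPM. The eotaxin gene Ccl11 had 331 and 746 CPM, and the monocyte attractants Ccl2 and Ccl7 had 91.4 and 279 CPM and 175 and 456 CPM. Other stromal cells differed in part. Of 34 measured genes of this list there, 4 were higher in Gel50_CS50 (C3, Cxcl14, Cxcl5 and Saa3). Another 8 were lower, Ccl2 and Ccl7 among them, with a median of -0.14. Of all genes measured in those cells, 1.23% were higher and 1.84% lower. Of 13 measured cell cycle genes in the Abcc9 set, 9 were higher (among them Mki67, Top2a and Cenpf) and 1 lower (Cdkn1c), and 4 were at 0 UMIs in a library. Of the summed UMIs of that list, 65.3% in Gel50_CS50 came from 1 cell, and the median per cell was 21 UMIs in Gel50_CS50 and 20.5 in Gel100. The 33 Gel50_CS50 cells and 10 Gel100 cells give no measure of the spread between mice.

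The Notch3 set differed least from other stromal cells in the number of genes. There, 22 of 2918 genes were over 2-fold above other stromal cells in both libraries. Slit2 had 1392 CPM in Gel50_CS50 and 856 CPM in Gel100, against 336 and 288 CPM in other stromal cells, Pdgfrb had 300 and 214 CPM against 111 and 65.0 CPM, and Col4a1 had 1208 and 437 CPM against 229 and 163 CPM. Col15a1, a collagen next to basement membranes, had 193 and 112 CPM against 29.4 and 19.9 CPM. Acta2 had 898 and 673 CPM against 547 and 519 CPM, and Rgs5 was at 0 and 4.46 CPM. The Gel50_CS50 cells with 33 and 29 Mcam UMIs held 30 and 32 of that library's 359 Pdgfrb UMIs in the set. Their part in the other levels was not tested. Notch3 held 3 to 32 UMIs per cell with a median of 6 in Gel50_CS50 and 4 to 9 with a median of 6 in Gel100. With 4 cells in Gel100, no ratio between the libraries is given for this set.

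Over all members together, of 7032 measured genes 105 were higher (1.49%) and 199 lower (2.83%) in Gel50_CS50. Rgs5 was among the lower, and the Rgs5 set was 42.4% of members in Gel50_CS50 and 64.1% in Gel100. Fmod (fibromodulin) had 189 CPM in Gel50_CS50 and 14.1 CPM in Gel100, and C3 (complement) had 469 and 1147 CPM. Of 28 measured contractile genes 0 were higher and 12 lower, and of 44 fibrillar genes 13 were higher and 8 lower, with a median of 0.22 against 0.73 in the Rgs5 set alone.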

How the data were processed

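Cells of 2 scaffold groups, 1 library each, were read from deposited matrices of raw UMI counts per gene and barcode, which Cell Ranger 6.0.2 wrote per the file headers, with no normalization. The build is mm10, per the submitters' processing notes. Identifiers were matched to GENCODE vM21 (99.6% found). No label names the annotation or any cell filter of the authors. The members, the sets and the 25 gene lists were chosen with earlier results of these data known.

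UMIs were summed over the cells of a set and library and divided by their total (CPM), so deep cells weigh more. Ratios have exact conditional binomial 95% intervals, shares Clopper-Pearson intervals, and differences of shares Newcombe intervals. They cover counting error only. A share of 0 allows up to 3 counts of the number of cells. The 38 symbols on more than 1 identifier and mitochondrial genes were left out of gene counts. Doublets were called with Scrublet in scanpy 1.11.5 and left in. The 3 sets, and repeats that leave out cells with Ptprc or Pdgfra or the cell richest in Acta2, were added after the data were seen. Genes were named by rule: the 12 largest and 12 smallest ratios with a mean of at least 50 CPM, an interval beyond 1.5-fold, detection in 10% of cells, no cell with over 25% of the UMIs in the higher library and a level above other kept cells there, plus the listed genes beyond 1.5-fold, the regulators named above and the 15 leading genes over other stromal cells. A few genes that met these rules are not reported here. The code was tested on simulated counts. Scripts ran in Python 3.11.15 (scipy 1.17.1, numpy 2.4.6, pandas 2.3.3, matplotlib 3.10.9).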

Additional observations from a re-analysis of the deposited data

How the results depend on the processing

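No paired analysis was possible because each group is 1 library and no test was made. The member share stayed higher in Gel50_CS50 under every setting tried, by 0.451 points at a marker sum of 10, 0.468 with 2 or more of the 5 markers, 0.483 with cells thinned to 5000 UMIs, 0.494 without Abcc9 in the sum, and 0.246 with at least 3 Rgs5 UMIs or without Pdgfra, against 0.836. Members per endothelial cell, 2.52 times as many in Gel50_CS50, came to 1.00 times without Ptprc-positive endothelial cells and 0.663 times with Rgs5-set cells alone, settings chosen after seeing the data. The difference in the Myh11 share was -2.87 points over members and 11.6 points in the Rgs5 set. Genes higher and lower over members numbered 33 and 80 at 100 CPM, 221 and 351 with no limit, and 31 and 60 after thinning, against 105 and 199. In the Rgs5 set they numbered 27 and 77 at 100 CPM, 123 and 411 with no limit, 19 and 77 after thinning, and 162 and 423 with under 3 Myh11 UMIs, and 139 were lower without the 10% of cells with the most UMIs, against 77 and 233. Genes over 2-fold above other stromal cells numbered 380 in the Rgs5 set against 153 over members. Several log2 ratios turned sign. Over members, Steap4 came to 0.17 after thinning, Itgbl1 to -1.51 and Ccl11 to 1.73 without Pdgfra, and Ccl11 to 1.60 with at least 3 Rgs5 UMIs. Acta2 over members came to 1.21 and Tagln to 1.15 with under 3 Myh11 UMIs, and Acta2 to 0.15 without the deepest 10% and 0.11 without the cell richest in it, and without that cell in Gel100 alone Acta2 came to 0.21 and Tagln to 0.0091. In the Rgs5 set Acta2 came to 1.48 and Tagln to 0.88 with under 3 Myh11 UMIs, 0.47 and 0.14 without the deepest 10%, and 0.047 and 0.075 with equal weights, and Acta2 to 0.033 without the richest cell of each library and 0.14 without that of Gel100. The causes were not tested. Of the other values, 61 comparisons and 1076 gene and list values stayed within their counting interval, 1.5-fold or, for list medians, 0.3 on the log2 scale. A further 233 moved by more with the same sign, and 61 turned sign, 30 of them genes not beyond 1.5-fold at first and 31 list medians. Over members, Myocd came to 0.83 after thinning, against -0.39, and the contractile median to 0.25 with under 3 Myh11 UMIs, against -0.63. With 25 Gel100 cells in the Rgs5 set, 397661 UMIs in all, genes under about 20 CPM rest on fewer than 10 UMIs there.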

Other observations

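In the Abcc9 set, whose cells carried Pdgfra and Dcn, 1 of 35 measured interferon-stimulated genes was higher (Ifi27) and 1 lower (Trim30a) in Gel50_CS50, with a median log2 ratio of -0.26. In the Rgs5 set 0 of 43 were higher and 17 lower, with a median of -0.90. In other stromal cells 1 of 41 was higher and 17 lower, with a median of -0.70. The shares over all genes were 2.05% higher and 1.79% lower in the Abcc9 set and 1.12% and 3.37% in the Rgs5 set. They were 1.23% and 1.84% in other stromal cells. Whether the sets differ in this was not tested. The neutrophil list summed to 261 CPM in the Abcc9 set of Gel50_CS50 and 38.5 CPM in that of Gel100, and the macrophage list to 684 and 286 CPM. The part of leukocyte RNA in these values was not tested.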
